A study of Mus musculus with 24 samples.

Results

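The mitochondrial ribosome is built from proteins whose genes all lie in the nucleus, and the genes named for it (Mrpl for the large subunit, Mrps for the small) were followed here in TM3 cells, a line of mouse Leydig cells, after a nanosecond pulsed electric field (nsPEF). Members were all gene symbols made of Mrpl or Mrps, a number and at most 1 further letter, with the symbol taken from the RefSeq transcript of each probe. This gave 78 genes on 107 probes, of 23787 genes with a symbol on the array. Cells had been detached and suspended in cuvettes. The nsPEF-exposed cells received 80 pulses of 60 ns at 14 kV/cm, the sham-exposed cells none, and total RNA was taken at 0, 4 and 24 h. There were 4 biological replicates in each of the 6 groups, so 24 one-colour arrays. TM3 is a single established line, so replicates share their genetic source. RNA at 0 h thus came from cells just detached, filtered and suspended. The paper states that cells at 4 and 24 h were harvested quickly, and proposes that the long preparation may have stressed those at 0 h. Every comparison with 0 h also holds this difference in handling, which cannot be told apart from time. The 8 arrays of a time point were hybridised on 1 slide of their own, and the effects of time and of slide cannot be told apart. Sham arrays lay in the first row of each slide and nsPEF arrays in the second, so treatment and place on the slide cannot be told apart either. In such bulk RNA, fewer cells that express a gene and less RNA per cell cannot be told apart.

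Mitochondrial ribosomes sit at the inner mitochondrial membrane and make the few respiratory chain subunits that mitochondrial DNA encodes. Their rRNAs come from mitochondrial DNA, whereas all their proteins are made in the cytosol and imported, so assembly draws on both genomes. Some of these proteins have a counterpart in bacterial ribosomes and others were added later in evolution. Leydig cells, whose first step of steroid synthesis takes place in mitochondria, depend on these organelles. All levels below are log2 of the array signal minus the 75th percentile of that array, and all changes are differences on that scale, so that 1 unit is a 2-fold change. A gene rose or fell if its p-value, from limma and adjusted by Benjamini-Hochberg over 38037 probes, was under 0.05. A gene with several probes was read on the brightest. No level is compared between genes, because probes differ in brightness.

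Every one of the 78 genes was well above background on all 24 arrays, and no probe spot of the arrays was saturated. The share of all probes well above background was between 57.6 and 62.2% on sham arrays and between 51.6 and 57.7% on nsPEF arrays, and the 75th percentile of the signal between 201.8 and 532.7. Of 9 Leydig markers on the array, Star, Cyp17a1, Nr5a1 and Gata4 were well above background on all 24 arrays, whereas Cyp11a1, Hsd3b6, Hsd17b3 and Lhcgr were on none and Hsd3b1 on 1. Some markers of other testis cells were also seen on all 24 arrays, namely Sox9, Rhox5 and Wt1 of Sertoli cells, Tnp1 of germ cells, Cd68 and Csf1r of macrophages and Pecam1 of endothelium. The other listed markers were on fewer arrays. Of the Sertoli list, Amh was on 2, Fshr on 1 and Dhh on none. Of the germ cell list, Prm1 was on 17, Ddx4 on 16, Dazl on 2 and Sycp3 on 1. Adgre1 and Ptprc of macrophages and Cdh5 and Kdr of endothelium were on 1 each, and Tek on none. Between 0 and 4 h in sham-exposed cells, 2 of 3 tested Sertoli cell markers and the 1 endothelial marker fell, and 1 rose and 1 fell of 4 Leydig, of 4 germ cell and of 2 macrophage markers. Of all genes tested 30.5% rose and 34.3% fell. TM3 is a single established line, and what these marker signals stem from was not tested.

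The promoters of these genes are shown first, because the family divided into genes that rose and genes that fell, and the question is whether their start regions divide in the same way. RefSeq windows (build GRCm38.p6) of 250 bases before and 50 after the start were at hand for 69 of the 78 genes, the rest being Mrps34, Mrpl15, Mrps28, Mrpl13, Mrpl54, Mrps35, Mrpl19, Mrpl4 and Mrpl38. The windows were searched on both strands for the motif of Nrf1, a factor known for nuclear genes of mitochondria, for that of Ets factors such as Gabpa (CCGGAAG), for that of Yy1 and for the E-box (CACGTG). The letters of the longer Nrf1 and Yy1 motifs, or their reverse complement where the other strand is named, are the capitals in the lines below. No motif contains another. The next lines give the last 150 bases before the start, 5′ to 3′ on the strand of the gene, with each motif in capitals. The first are Mrps6 (chr16:92058186-92058335, plus strand) and Mrpl24 (chr3:87919394-87919543, plus strand), the genes with the largest rise and the largest fall in sham-exposed cells at 4 h, and neither stretch holds any of the motifs.
Mrps6: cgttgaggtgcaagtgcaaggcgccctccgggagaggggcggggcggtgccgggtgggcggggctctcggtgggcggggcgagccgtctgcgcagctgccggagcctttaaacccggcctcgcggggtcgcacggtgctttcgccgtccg
Mrpl24: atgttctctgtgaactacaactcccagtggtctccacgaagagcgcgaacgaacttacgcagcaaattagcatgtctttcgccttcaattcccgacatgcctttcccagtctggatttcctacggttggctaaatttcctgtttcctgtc

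The Ets motif stood in the stretches of Mrpl51 (chr6:125192050-125192199, plus strand), Mrpl34 (chr8:71464776-71464925, plus strand) and Mrps27 (chr13:99344636-99344785, plus strand, motif on the other strand), all of which fell at 4 h.
Mrpl51: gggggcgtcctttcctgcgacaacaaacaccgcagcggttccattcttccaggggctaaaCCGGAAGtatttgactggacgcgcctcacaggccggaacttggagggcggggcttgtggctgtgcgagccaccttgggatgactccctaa
Mrpl34: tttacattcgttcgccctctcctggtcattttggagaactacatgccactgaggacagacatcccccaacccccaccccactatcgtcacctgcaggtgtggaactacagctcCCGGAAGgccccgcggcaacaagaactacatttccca
Mrps27: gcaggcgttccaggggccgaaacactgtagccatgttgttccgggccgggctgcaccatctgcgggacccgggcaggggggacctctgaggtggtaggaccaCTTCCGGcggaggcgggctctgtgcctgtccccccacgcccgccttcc

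The Nrf1 motif stood in those of Mrpl9 (chr3:94443186-94443335, plus strand), Mrpl32 (chr13:14613038-14613187, minus strand) and Mrpl12 (chr11:120484487-120484636, plus strand, motif on the other strand), which rose at 4 h, and of Mrps21 (chr3:95871515-95871664, minus strand, motif on the other strand), which fell.
Mrpl9: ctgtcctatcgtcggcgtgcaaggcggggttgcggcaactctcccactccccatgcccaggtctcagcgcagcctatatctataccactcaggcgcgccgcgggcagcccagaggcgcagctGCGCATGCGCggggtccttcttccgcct
Mrpl32: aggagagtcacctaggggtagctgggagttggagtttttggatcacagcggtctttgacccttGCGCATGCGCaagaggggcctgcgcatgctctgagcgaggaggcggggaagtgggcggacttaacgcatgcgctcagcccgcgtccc
Mrpl12: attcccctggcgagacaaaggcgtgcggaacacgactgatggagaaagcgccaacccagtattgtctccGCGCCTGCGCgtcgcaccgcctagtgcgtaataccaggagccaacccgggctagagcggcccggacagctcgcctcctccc
Mrps21: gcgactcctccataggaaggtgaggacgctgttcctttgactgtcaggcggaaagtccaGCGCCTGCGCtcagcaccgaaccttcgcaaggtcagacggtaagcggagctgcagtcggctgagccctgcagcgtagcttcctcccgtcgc

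The last is the stretch before Mrps11 (chr7:78782981-78783130, plus strand), which holds the Yy1 motif on the other strand. It is shown because the start of Mrpl46, another gene of the family, lies 42 bases away on the opposite strand.
Mrps11: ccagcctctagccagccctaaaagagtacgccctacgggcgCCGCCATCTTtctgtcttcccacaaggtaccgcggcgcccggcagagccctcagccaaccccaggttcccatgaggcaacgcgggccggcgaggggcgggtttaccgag

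The Ets motif was in 26 of the 69 windows (37.7%), against 16.2% of the windows of 13447 genes tested on the array, 41.4% of those of 58 cytosolic ribosomal protein genes and 12.5% of those of 32 nuclear complex I genes. The Nrf1 motif was in 13 (18.8%), against 9.07, 8.62 and 21.9% of the same sets. The Yy1 motif was in 5 (7.25%), against 1.83, 3.45 and 12.5% of these sets, so complex I genes held it more often. The E-box was in 5 (7.25%), against 10.4, 10.3 and 6.25%. Over all 27025 genes with a window, silent ones included, the shares were 9.93% for Ets, 5.19% for Nrf1, 0.995% for Yy1 and 8.09% for the E-box. These shares are descriptions and were not tested. At least 1 of the Nrf1, Ets and Yy1 motifs stood in 16 of 26 windows of genes that rose in sham-exposed cells at 4 h and in 16 of 28 of genes that fell. The median difference at 4 h was -0.04 for genes with one of these motifs and -0.10 for those without. For single motifs, the median was -0.08 with and -0.06 without the Nrf1 motif, which stood in 6 of 26 windows of rising and 6 of 28 of falling genes. It was -0.11 with and 0.00056 without the Ets motif, which stood in 9 of 26 windows of rising and 12 of 28 of falling genes. It was 0.18 with and -0.10 without the Yy1 motif, which stood in 3 rising genes and 1 falling gene. The value with Yy1 rests on only 5 genes.

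Many of these genes share their start region with a neighbour. Another gene began on the opposite strand within 500 bases upstream for 23 of the 69 (33.3%, against 15.2% of genes tested). The share was 28.1% for nuclear complex I genes and 19% for cytosolic ribosomal protein genes. Both genes were tested in 21 such pairs, and in 15 of them (71.4%) the neighbours changed with the same sign in sham-exposed cells at 4 h, against 54% of 759 such pairs over the whole array. Both passed the test in 12 pairs, 7 in the same direction and 5 in opposite directions, against 235 and 193 of 428 over the array. Mrpl43 rose by 0.57 ± 0.05 (SE) and its neighbour Twnk, the helicase of mitochondrial DNA, by 0.49 ± 0.06. Mrps27, a pentatricopeptide repeat protein, went the other way from its neighbour Ptcd2, a gene of the same protein class, at -0.32 ± 0.05 against 0.38 ± 0.06. Mrpl46 rose by 0.47 ± 0.06 (limma, adjusted p = 2.07e-06), whereas Mrps11, across the 42 bases that the stretch printed above holds, had a difference of 0.00 ± 0.07 (adjusted p = 0.983).

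In sham-exposed cells the family split between 0 and 4 h, with 28 genes that rose and 31 that fell, and 19 did not pass the test. Of all 16999 genes tested, 64.8% passed the test, 30.5% upward and 34.3% downward, so the family's shares lie near those of the array. Its changes were smaller than those of all genes: differences ranged from -0.68 to 0.88, with an SD of 0.38 against 0.88. None of the 78 reached a 2-fold change, against 19.1% of all genes. A gene could be tested with as few as 2 arrays well above background, and brightness was not matched here. The SD was lower still over 36 nuclear complex I genes (0.15) and 78 cytosolic ribosomal protein genes (0.17). The median difference was -0.06 in the family and -0.04 over all genes. The balance of the split moved with the scaling of the arrays, with 26 rises and 43 falls after quantile normalization, 25 and 42 with the percentile taken over probes detected on all arrays, and 28 and 21 with scaling on the spike-in RNAs.

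Both subunits contributed genes to either side of the split. Of 30 large subunit proteins with a bacterial counterpart 11 rose and 12 fell, and of 21 large subunit proteins without one 9 rose and 8 fell. Of 16 small subunit proteins with a bacterial counterpart 3 rose and 6 fell, and of 10 without one 5 rose and 4 fell. Mrps18b and Mrps18a, named as forms of the S18 protein, were placed in the groups without a counterpart, and both rose. Mrps30 and Mrps18a, which carry a small subunit name but sit in the large subunit and are counted there, rose by 0.44 ± 0.06 (SE) and 0.32 ± 0.06. Mrpl58, a peptidyl-tRNA hydrolase that became part of the large subunit, fell by 0.28 ± 0.07 on the log2 scale. Mrps36, which has the family name but encodes a component of the alpha-ketoglutarate dehydrogenase complex, fell by 0.45 ± 0.06. The plot by place in the ribosome shows the whole range in each of the groups.

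**Figure D1:**
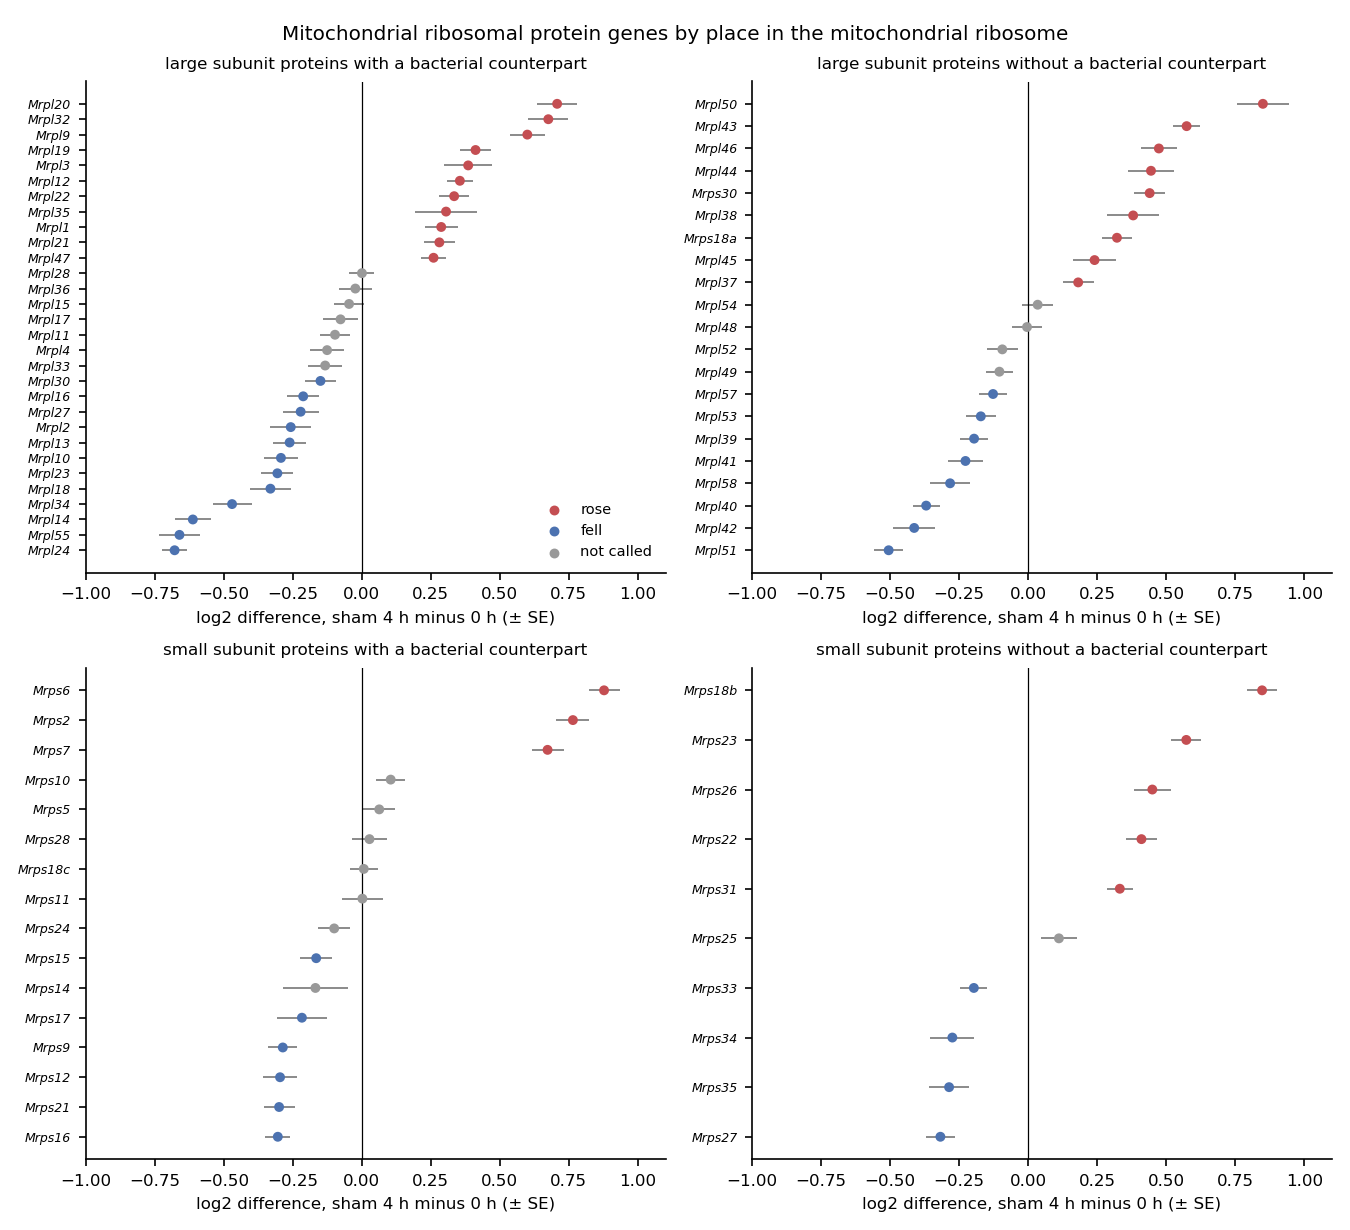
Log2 difference between 4 and 0 h in sham-exposed cells (x axis, point with SE) for 77 mitochondrial ribosomal protein genes in 4 structural groups (Mrps36 is left out), red for genes that rose, blue for genes that fell and grey for those that did not pass the test. Each panel runs from falls to rises, with 28 rises in all and 30 falls (31 with Mrps36), and the zero line itself moves with the scaling of the arrays (43 falls after quantile normalization, 21 with spike-in scaling, Mrps36 included).

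The largest rise was that of Mrps6, a small subunit protein with a bacterial counterpart (chromosome 16, 92058336 to 92112227). Its levels were 4.31, 4.28, 4.20 and 4.32 in the 4 sham arrays at 0 h and 5.18, 5.18, 5.19 and 5.06 at 4 h. The groups lay far apart, and the gene was 1.84-fold higher at 4 h (0.88 ± 0.06 SE, limma, adjusted p = 3.18e-11). Mrpl50, a large subunit protein that bacteria lack, read -0.13, 0.03, -0.21 and -0.10 at 0 h and 0.83, 0.73, 0.78 and 0.65 at 4 h. All 4 arrays at 4 h were above all at 0 h (1.80-fold, adjusted p = 1.23e-07). Mrps18b is 1 of the 3 forms of the S18 protein that mammals keep, each from its own gene. It read 4.94, 5.04, 4.94 and 4.99 at 0 h and 5.87, 5.79, 5.80 and 5.83 at 4 h, again without overlap (1.80-fold, adjusted p = 3.83e-11). The other 2 forms differed from it in size, with Mrps18a at 0.32 ± 0.06 and Mrps18c, whose protein is in the small subunit too, at 0.01 ± 0.05 (adjusted p = 0.924). Mrps2, a small subunit protein that bacteria share, read 3.74, 3.81, 3.69 and 3.85 at 0 h and 4.66, 4.48, 4.53 and 4.48 at 4 h. No array at 4 h came near those at 0 h, and the gene was 1.70-fold higher (adjusted p = 7.02e-10). Over all genes tested, 30.1% lay wholly above and 32.7% wholly below their 0 h range at 4 h. The genes given array by array were picked for large changes, so their gaps are no separate result.

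The 4 largest falls were all in large subunit proteins. Mrpl24 (chromosome 3, 87918131 to 87923450), whose bacterial counterpart starts assembly of the large subunit, read 5.06, 5.07, 4.98 and 5.03 at 0 h and 4.38, 4.33, 4.37 and 4.35 at 4 h. The 2 groups were tight and apart, and the gene was 1.60-fold lower (-0.68 ± 0.04 SE, limma, adjusted p = 3.76e-11). Mrpl55 read 3.82, 3.98, 3.97 and 3.99 at 0 h and 3.41, 3.23, 3.29 and 3.18 at 4 h (1.58-fold lower, adjusted p = 1.24e-07). Mrpl14, which lies on the face of the large subunit where the assembly factor Malsu1 binds, read 5.67, 5.75, 5.69 and 5.56 at 0 h and 5.07, 5.03, 5.10 and 5.02 at 4 h (1.53-fold lower, adjusted p = 7.63e-08). Neither gene had an array at 4 h within the range at 0 h. Mrpl51, without a bacterial counterpart, read 6.09, 6.06, 5.93 and 6.07 at 0 h and 5.64, 5.53, 5.57 and 5.39 at 4 h (1.42-fold lower, adjusted p = 4.05e-08), the groups again being apart. All 8 genes kept their direction and passed the test under each of 41 alternative settings.

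**Figure D2:**
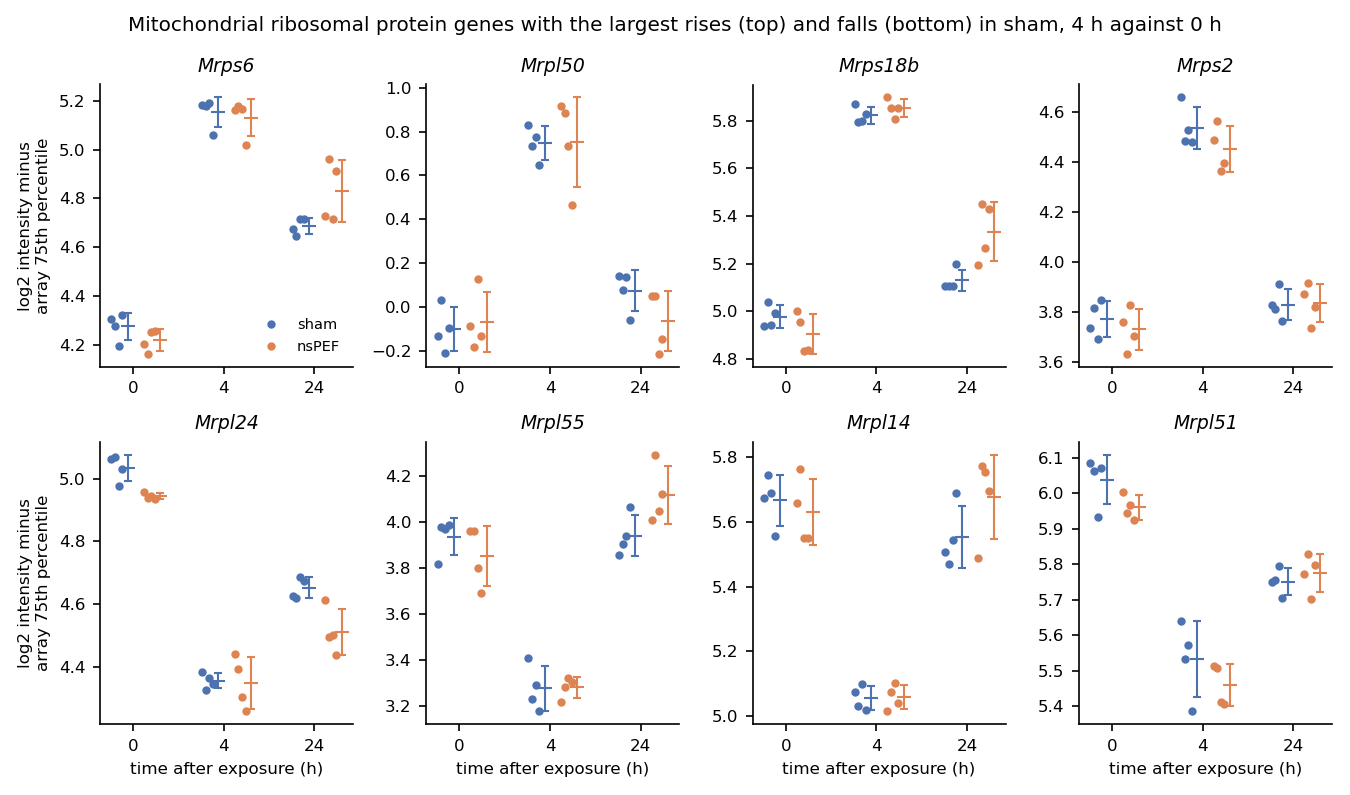
Level of 8 mitochondrial ribosomal protein genes (y axis, log2 signal minus the 75th percentile of the array) in each of 24 arrays at 0, 4 and 24 h, blue for sham-exposed and orange for nsPEF-exposed cells, with the mean and SD of 4 arrays beside the points. The upper row shows the 4 largest rises and the lower row the 4 largest falls in sham-exposed cells at 4 h (0.88 for Mrps6, -0.68 for Mrpl24), and all 8 changed in the same direction in nsPEF-exposed cells at 4 h; under spike-in scaling Mrpl24 is higher, not lower, at 24 h than at 0 h.

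The remaining genes that rose at 4 h were Mrpl20 (0.71), Mrpl32 (0.68), Mrps7 (0.67), Mrpl9 (0.60), Mrpl43 (0.57), Mrps23 (0.57), Mrpl46 (0.47), Mrps26 (0.45), Mrpl44 (0.44), Mrps30 (0.44), Mrpl19 (0.41), Mrps22 (0.41), Mrpl3 (0.39), Mrpl38 (0.38), Mrpl12 (0.36), Mrpl22 (0.33), Mrps31 (0.33), Mrps18a (0.32), Mrpl35 (0.31), Mrpl1 (0.29), Mrpl21 (0.28), Mrpl47 (0.26), Mrpl45 (0.24) and Mrpl37 (0.18). Among them Mrpl12 forms the stalk on which translation factors are recruited, and Mrpl32 is known as a substrate of the inner membrane m-AAA protease. Mrps7 and Mrps22 are small subunit proteins known from inherited disorders of mitochondrial translation, as are Mrpl3 and Mrpl44 of the large subunit.

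At 24 h the differences from 0 h were spread less than at 4 h, with an SD over the 78 genes of 0.15 against 0.38 (0.50 against 0.88 over all genes), while under spike-in scaling their median was 0.64 at 24 h and -0.01 at 4 h. Between 4 and 24 h 21 genes rose and 30 fell in sham-exposed cells (64.9% of all genes passed, 31.4% upward and 33.5% downward). The comparisons of 4 with 0 h and of 24 with 4 h share the 4 h arrays, so their values are only set side by side. They were 0.88 and -0.46 for Mrps6, 0.76 and -0.71 for Mrps2 and -0.68 and 0.30 for Mrpl24. The largest falls were in Mrps7, Mrpl9 and Mrpl32. Mrps7 read 5.61, 5.62, 5.71 and 5.51 at 4 h and 4.79, 4.74, 4.83 and 4.91 at 24 h, below every array at 4 h (-0.80 ± 0.06 SE, limma, adjusted p = 3.21e-10). Mrpl9 read 3.34, 3.32, 3.46 and 3.11 at 4 h and 2.51, 2.59, 2.60 and 2.45 at 24 h (-0.77 ± 0.06, adjusted p = 2.18e-09), and Mrpl32 read 3.56, 3.58, 3.68 and 3.42 and then 2.82, 2.81, 2.87 and 2.72 (-0.75 ± 0.07, adjusted p = 1.96e-08). All 3 kept their sign but missed the threshold under spike-in scaling. The largest rises were those of Mrpl55 (0.66 ± 0.07), Mrpl34 (0.52 ± 0.07) and Mrpl14 (0.50 ± 0.07). Mrpl34, a large subunit protein shared with bacteria, read 3.48, 3.50, 3.54 and 3.57 at 4 h and 3.93, 3.97, 4.05 and 4.20 at 24 h, with no overlap (adjusted p = 2.9e-06). Between these times 30.2% of all genes lay wholly higher and 31.7% wholly lower.

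The count of rises and falls over this interval turned with the scaling. It was 43 and 20 after quantile normalization, 37 and 22 with the percentile over probes detected on all arrays, and 66 and 0 with spike-in scaling, under which the median of all genes over this interval was 0.66 (0.01 in the scaling used here). A change of 1 gene relative to another on the same arrays does not depend on a percentile or spike-in scaling. Mrpl55, Mrpl34 and Mrpl14 went up relative to Mrps7, Mrpl9 and Mrpl32, but they were picked as the largest rises and falls of this interval. Their order was therefore fixed by the choice and is no separate result.

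At 24 h 5 genes of sham-exposed cells were above and 21 below their level at 0 h (38.1% of all genes passed, 15.5% above and 22.6% below), with a range from -0.40 to 0.41. The numbers above and below were 15 and 13 after quantile normalization, 13 and 16 with the percentile over probes detected on all arrays, and 78 and 0 with spike-in scaling. The rises were those of Mrps6 (0.41), Mrpl20 (0.23), Mrps5 (0.20), Mrps18b (0.15) and Mrpl47 (0.15). Mrps6 had come down to 4.68, 4.65, 4.71 and 4.71 at 24 h, between its levels at 0 and 4 h and without overlap with either. Mrpl20, a large subunit protein shared with bacteria, read 5.10, 5.17, 5.20 and 5.19 at 0 h and 5.35, 5.30, 5.42 and 5.50 at 24 h (0.23 ± 0.07 SE, limma, adjusted p = 0.0191). Mrps5, whose bacterial counterpart lies where the mRNA enters the ribosome, read 2.45, 2.31, 2.38 and 2.36 and then 2.59, 2.55, 2.51 and 2.67 (0.20 ± 0.06, adjusted p = 0.00858). In both genes all arrays at 24 h were above those at 0 h, as in 18.2% of all genes, while 24.6% lay wholly below.

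The largest falls from 0 to 24 h were those of Mrpl23, Mrpl24 and Mrps28, all 3 of which reversed, to 0.30, 0.32 and 0.40, under spike-in scaling. Mrpl23, a protein at the exit of the peptide tunnel, read 5.22, 5.26, 5.25 and 5.18 at 0 h and 4.76, 4.76, 4.83 and 4.97 at 24 h (-0.40 ± 0.06 SE, limma, adjusted p = 2.04e-05). Mrpl24 stood at 4.63, 4.62, 4.69 and 4.67 at 24 h (-0.38 ± 0.04, adjusted p = 1.11e-06), still below every array at 0 h. Mrps28 was at 4.27, 4.31, 4.27 and 4.22 at 0 h, at 4.24, 4.33, 4.37 and 4.24 at 4 h and at 3.87, 3.93, 3.95 and 4.10 at 24 h. Its groups at 0 and 4 h overlapped (0.03 ± 0.06), and those at 24 h lay below both (-0.30 ± 0.06 against 0 h, adjusted p = 0.000646). Without replicate 1, 2 or 3 of all groups the number of genes that differed between 24 and 0 h went from 26 to 16, 15 and 15.

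In nsPEF-exposed cells the split at 4 h ran largely through the same genes, whereas the counts at 24 h were further apart. Between 0 and 4 h 26 genes rose and 31 fell (67.2% of all genes passed, 34.5% upward and 32.6% downward). Of the genes that rose in sham-exposed cells 25 also rose after nsPEF, of those that fell 28 also fell, and none passed in opposite directions. No array is shared between these 2 comparisons, although the slides are. The sign of the difference was the same in 75 of the 78 genes (96.2%, against 87.6% of all genes), and across the 78 genes the differences had a Pearson r of 0.981 and a Spearman rho of 0.971, against an r of 0.856 across all 16999 genes. For 24 against 0 h the sign was the same in 56 of 78 genes (71.8%, against 77.2% of all genes), with an r of 0.837 and a rho of 0.803 (r of 0.64 across all genes). Genes are not independent replicates, so no p is given. All genes include dimmer ones than the family, and a set of like brightness was not compared. Mrps18b (0.95), Mrps6 (0.91), Mrpl20 (0.88) and Mrpl50 (0.82) led the rises, and Mrpl24 (-0.59), Mrpl14 (-0.57), Mrpl55 (-0.57) and Mrpl51 (-0.50) the falls. With spike-in scaling 27 rose and 15 fell, after quantile normalization 25 and 44, and with the percentile over probes detected on all arrays 26 and 43.

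**Figure D3:**
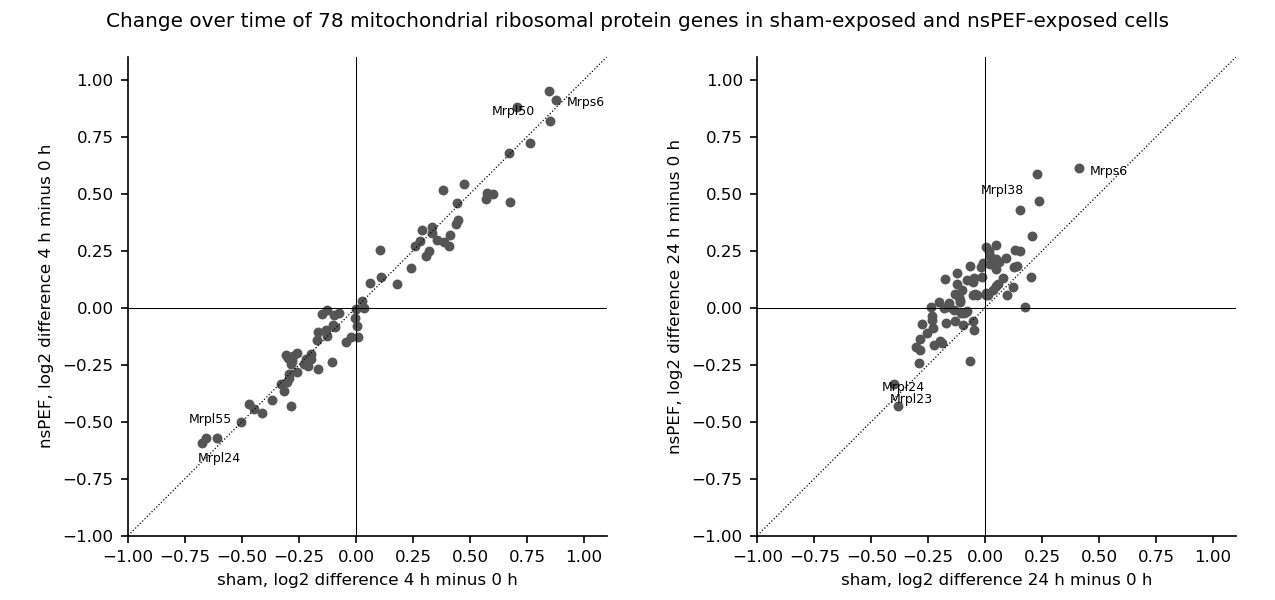
Log2 difference from 0 h in sham-exposed cells (x axis) against that in nsPEF-exposed cells (y axis) for 78 mitochondrial ribosomal protein genes, at 4 h (left) and 24 h (right), with the line of equal change dotted. At 4 h the points lie along the line (r of 0.981), and at 24 h they lie mostly above it, with a median excess of 0.13 in nsPEF-exposed cells. Spike-in scaling moves both axes upward at 24 h, by about 0.68 (sham) and 0.51 (nsPEF) for the median of all genes, and takes the family's median for nsPEF against sham at 24 h from 0.06 to -0.01.

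From 4 to 24 h after nsPEF 31 genes rose and 20 fell (62.8% of all genes passed, 31.4% upward and 31.4% downward), with 48 and 13 after quantile normalization, 44 and 16 with the percentile over probes detected on all arrays, and 59 and 2 with spike-in scaling. The sign matched that in sham-exposed cells in 66 of 78 genes (84.6%, against 85.7% of all genes). Mrps18c was the only gene that passed in opposite directions, with a fall of 0.17 in sham-exposed cells (-0.17 ± 0.05 SE, limma, adjusted p = 0.00906) and a rise of 0.13 ± 0.05 after nsPEF (adjusted p = 0.0419). The test of the difference itself, the treatment by time interaction, did not pass for it (adjusted p = 0.114). Against 0 h, 22 genes were higher and 8 lower at 24 h after nsPEF (45.3% of all genes passed, 24.1% higher and 21.3% lower), against 5 and 21 in sham-exposed cells. With spike-in scaling the numbers were 75 and 0 after nsPEF and 78 and 0 in sham-exposed cells. All 5 genes that were above 0 h in sham-exposed cells were so after nsPEF, and 8 of the 21 lower ones. Without replicate 2 or replicate 3 of all groups the 30 genes became 19 and 16.

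The direct comparison of nsPEF with sham found few genes of the family. At 0 h none of the 78 passed the test (0.100% of all genes did, 0.0353% higher and 0.0647% lower), and 8 (10.3%) had an unadjusted p under 0.05, against 8.54% of all genes. At 4 h none was higher and 2 were lower (4.15% of all genes passed, 1.79% higher and 2.35% lower). At 24 h 3 were higher and none lower (5.75%, 2.81 and 2.95%), and over all time points none was higher and 3 were lower (10.6%, 4.46 and 6.10%). The shares of the family with an unadjusted p under 0.05 were 19.2, 29.5 and 11.5%, against 23.2, 24.9 and 28.5% of all genes. No gene passed the interaction test (0.418% of all genes did), and 22 (28.2%) had an unadjusted p under 0.05, against 17.6% of all genes, Mrps27 coming closest (adjusted p = 0.0581). The differences were small next to those over time: they ranged from -0.21 to 0.04 at 0 h, from -0.24 to 0.04 at 4 h and from -0.22 to 0.22 at 24 h, where the median SE of a difference was 0.06.

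At each time small differences nevertheless leaned to one side across the family, to lower after nsPEF at 0 and 4 h and to higher at 24 h. At 0 h 75 of 78 genes (96.2%) were lower after nsPEF, against 64.8% of all genes and all 36 complex I genes. At 4 h 66 (84.6%) were lower, against 54.5% of all genes and 55.6% of complex I genes. At 24 h 19 (24.4%) were lower, against 47.1% of all genes and 30.6% of complex I genes. The median SD of the family within a group was 0.097 in nsPEF arrays at 24 h, the largest of the 6 groups, and 0.065 in sham arrays. In the genes called at 24 h, given below, nsPEF replicates 2 and 4 read highest. How far these arrays carry the lean at 24 h was not tested. The medians were -0.06, -0.06 and 0.06 (-0.04, -0.02 and 0.01 over all genes), and under spike-in scaling these 3 medians became 0.10, 0.12 and -0.01. The genes share their arrays, so no test was made of this lean.

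Mrpl15, a large subunit protein shared with bacteria, had the smallest adjusted p among the genes lower after nsPEF, on the brighter of its 2 probes. It read 3.83, 3.92, 3.77 and 3.83 in sham-exposed and 3.67, 3.67, 3.75 and 3.76 in nsPEF-exposed cells at 0 h. At 4 h it read 3.93, 3.78, 3.79 and 3.67 against 3.66, 3.62, 3.52 and 3.45, and at 24 h 3.77, 3.75, 3.75 and 3.75 against 3.72, 3.67, 3.64 and 3.74. At each time every nsPEF array lay below every sham array, though narrowly. Taken singly, 5.28, 8.21 and 8.75% of all genes did so at 0, 4 and 24 h. The difference was -0.14 ± 0.03 (SE) over all time points (limma, adjusted p = 0.0126) and -0.23 ± 0.05 at 4 h (adjusted p = 0.0261). Its other probe, also well above background on all 24 arrays, did not pass in either comparison, with -0.06 over all time points (adjusted p = 0.4) and -0.19 at 4 h (adjusted p = 0.152).

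Mrpl19 was lower by a like amount over all time points (-0.12 ± 0.03, limma, adjusted p = 0.0278). It read 2.19, 2.26, 2.37 and 2.18 in sham-exposed and 2.19, 2.09, 2.05 and 1.98 in nsPEF-exposed cells at 4 h, with overlap in 1 array. It read 1.78, 1.91, 1.82 and 1.85 against 1.69, 1.77, 1.81 and 1.78 at 0 h and 2.02, 1.96, 2.00 and 1.86 against 1.91, 1.83, 1.78 and 1.89 at 24 h, and these groups overlapped as well. Mrps21 (-0.11 ± 0.03, adjusted p = 0.0448) read 5.71, 5.72, 5.50 and 5.59 against 5.50, 5.45, 5.52 and 5.46 at 0 h, where the groups overlapped. At 4 h it read 5.39, 5.38, 5.35 and 5.21 against 5.34, 5.32, 5.21 and 5.15, again with overlap. At 24 h it read 5.46, 5.42, 5.45 and 5.40 against 5.37, 5.36, 5.25 and 5.36, without overlap. Its other 2 probes did not pass (-0.03, adjusted p = 0.614, and -0.12, adjusted p = 0.182). The 3 genes became 1 without sham replicate 2 at 0 h or sham replicate 3 at 24 h, and 5 without nsPEF replicate 1 at 4 h. With spike-in scaling none of the 3 passed and 9 other calls, all higher after nsPEF, were made.

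The other gene at 4 h was Mrps27, a small subunit protein without a bacterial counterpart. It read 1.08, 1.03, 1.05 and 1.03 in sham-exposed and 0.93, 0.84, 0.85 and 0.75 in nsPEF-exposed cells, with a clear gap (-0.20 ± 0.05 SE, limma, adjusted p = 0.0427, and 0.0607 with the replicate number as a block). It was also low at 0 h, at 1.36, 1.35, 1.41 and 1.33 against 1.20, 1.24, 1.20 and 1.22 (-0.15 ± 0.05, adjusted p = 0.283). At 24 h the order had turned, with 1.12, 1.14, 1.17 and 1.32 against 1.19, 1.42, 1.38 and 1.36 (0.15 ± 0.05, adjusted p = 0.1) and overlapping groups. With that block Mrpl15 alone passed at 4 h. The calls at 4 h moved with single arrays. There were none without sham replicate 1, 2 or 3 or nsPEF replicate 3 or 4 at 4 h, 1 without nsPEF replicate 2 at 4 h, 4 without nsPEF replicate 1 at 4 h and 5 without sham replicate 4 at 4 h. Arrays of other times also enter the shared error, and there was 1 call without sham replicate 1, 2 or 4 or nsPEF replicate 1 at 0 h, or without sham replicate 2 or 3 at 24 h.

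At 24 h Mrps23, Mrps18b and Mrpl12 were higher after nsPEF, and in all 3 the same 2 nsPEF arrays were the highest. Mrps23, a small subunit protein without a bacterial counterpart, read 3.63, 3.64, 3.67 and 3.78 in sham-exposed and 3.77, 3.98, 3.84 and 4.00 in nsPEF-exposed cells (0.22 ± 0.05 SE, limma, adjusted p = 0.0303), whereas its other probe showed a difference of 0.01 (adjusted p = 0.924). Mrps18b read 5.11, 5.11, 5.10 and 5.20 against 5.19, 5.45, 5.26 and 5.43 (0.21 ± 0.05, adjusted p = 0.0378), and its other 2 probes did not pass (0.08, adjusted p = 0.313, and 0.13, adjusted p = 0.211). Mrpl12 read 5.37, 5.33, 5.38 and 5.41 against 5.43, 5.63, 5.44 and 5.65 (0.17 ± 0.05, adjusted p = 0.0493, and 0.0629 with the replicate block). In each, nsPEF replicates 2 and 4 stood above replicates 1 and 3, and the lowest nsPEF array of Mrps23 and of Mrps18b lay within the sham range. Without nsPEF replicate 2 or 4, or sham replicate 1, 2 or 3, at 24 h no gene passed, without nsPEF replicate 1 there were 14, and without sham replicate 4 at 4 h there were 5. With spike-in scaling none passed.

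**Figure D4:**
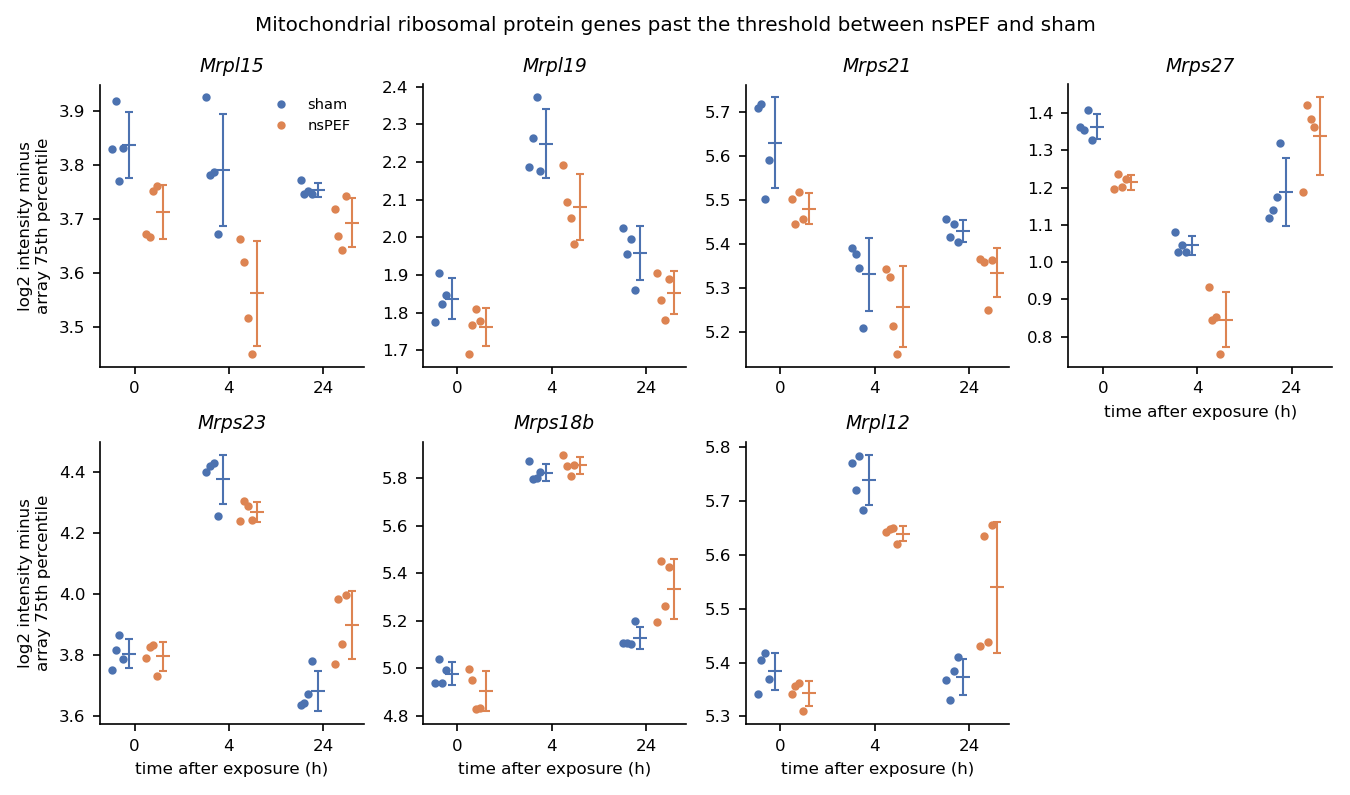
Level of the 7 mitochondrial ribosomal protein genes that passed the test between nsPEF-exposed (orange) and sham-exposed cells (blue) at 4 h, at 24 h or over all time points (y axis, log2 signal minus the 75th percentile of the array), for each of 24 arrays, with the mean and SD of 4 arrays. Mrpl15, Mrpl19, Mrps21 and Mrps27 were lower after nsPEF (Mrps27 at 4 h) and Mrps23, Mrps18b and Mrpl12 higher at 24 h, and with spike-in scaling none of the 7 passed.

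Probes of the same gene did not always move together. Of the 24 genes with several probes, 3 had probes that passed in opposite directions in sham-exposed cells at 4 h, and the same 3 did so after nsPEF. For Mrps33, 2 probes fell (-0.20 and -0.16) and 1 rose (0.50, limma, adjusted p = 0.000147), and in nsPEF-exposed cells that probe again went against the others between 4 and 24 h (-0.23 against 0.17 and 0.19). For Mrps17 the probes differed in sign (-0.22 and 0.22). For Mrpl48 the brightest did not pass (-0.0045, adjusted p = 0.955), another fell (-0.14) and the last, well above background on 18 of 24 arrays, rose (0.72). The direction given for these genes is that of 1 probe. The 78 genes lie on 17 chromosomes, with the most (11) on chromosome 11. The median span was 8.31 kb for genes that rose and 7.63 kb for those that fell at 4 h, with a Spearman rho between span and change of 0.105 over the 78 genes.

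The regulators of the mitochondrial genome and its ribosome come next. Their counts at 4 h, and those of the further lists below, stand beside the shares of all genes. Of all genes tested 30.5% rose and 34.3% fell in sham-exposed cells, and 34.5% rose and 32.6% fell after nsPEF. Of 9 transcription factors and coactivators with mitochondrial targets 8 rose and none fell in sham-exposed cells at 4 h (median 0.38). Pprc1, a coactivator of the PGC-1 family, rose by 1.49 ± 0.05 (SE, limma, adjusted p = 3.3e-15), Myc by 0.96 ± 0.06, Esrra by 0.38 ± 0.05, Yy1 by 0.48 ± 0.06 and Nrf1 by 0.62 ± 0.08, whereas Ppargc1b had a difference of 0.01 ± 0.07. After nsPEF 7 of the 9 rose and none fell (median 0.35). The median stayed positive under every scaling, between 0.27 and 0.43 in sham-exposed cells, with 6 or 7 rises. Of 12 genes of mitochondrial transcription and replication 7 rose and 1 fell (median 0.33), with Polg, the polymerase of mitochondrial DNA, at 0.94 ± 0.06, Mterf1a at 0.94 ± 0.07 and Tfb2m at 0.61 ± 0.06 among the rises and Mterf2 at -0.53 ± 0.10 as the fall. Tfam, which packages mitochondrial DNA, had a difference of 0.01 ± 0.06.

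Of 26 tested genes of ribosome assembly and rRNA modification 14 rose and 6 fell (median 0.26). The spread was wide. Tfb1m, a methyltransferase of the small rRNA, had the largest change, at -1.85 ± 0.08 (SE, limma, adjusted p = 1.07e-13), and Mettl15, another methyltransferase of that rRNA, was at -1.16 ± 0.06. Fastkd2 (0.96 ± 0.05), Ddx28 (0.82 ± 0.04) and Mrm3 (0.80 ± 0.04), which act on the large subunit or its rRNA, rose. After nsPEF 15 rose and 8 fell, with Tfb1m at -2.10. Of 18 tested translation factors 6 rose and 6 fell (5 and 9 after quantile normalization, 6 and 3 with spike-in scaling), Letm1 at 0.79 ± 0.05 and Oxa1l, the insertase that takes up the nascent chains, at -0.56 ± 0.08. Of the 5 proteins of the ribosome that carry other names, Ptcd3 rose (0.46 ± 0.05), Dap3 (-0.30 ± 0.05), Aurkaip1 (-0.31 ± 0.06) and Chchd1 (-0.20 ± 0.06) fell, and Gadd45gip1 did not pass (-0.18 ± 0.08).

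Of 36 nuclear genes of complex I, which takes up subunits made on this ribosome, 30 fell and none rose in sham-exposed cells at 4 h (median -0.23), and 22 fell and none rose after nsPEF. In sham-exposed cells at 4 h 20 to 36 of them fell and none rose under the other scalings. Of 78 cytosolic ribosomal protein genes tested, 30 fell and 1 rose (median -0.23), but after quantile normalization 8 fell and 17 rose and with spike-in scaling 3 and 2. After nsPEF none fell and 3 rose (median 0.01). In the direct comparison of nsPEF with sham at 4 h none of these 78 genes passed (median 0.21). All 36 complex I genes had a negative difference, where the mitochondrial ribosomal protein genes had 36 positive and 42 negative. By 24 h the median of the transcription factors in sham-exposed cells was 0.12 and that of assembly and rRNA modification -0.02, with 0.82 and 0.68 under spike-in scaling.

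**Figure D5:**
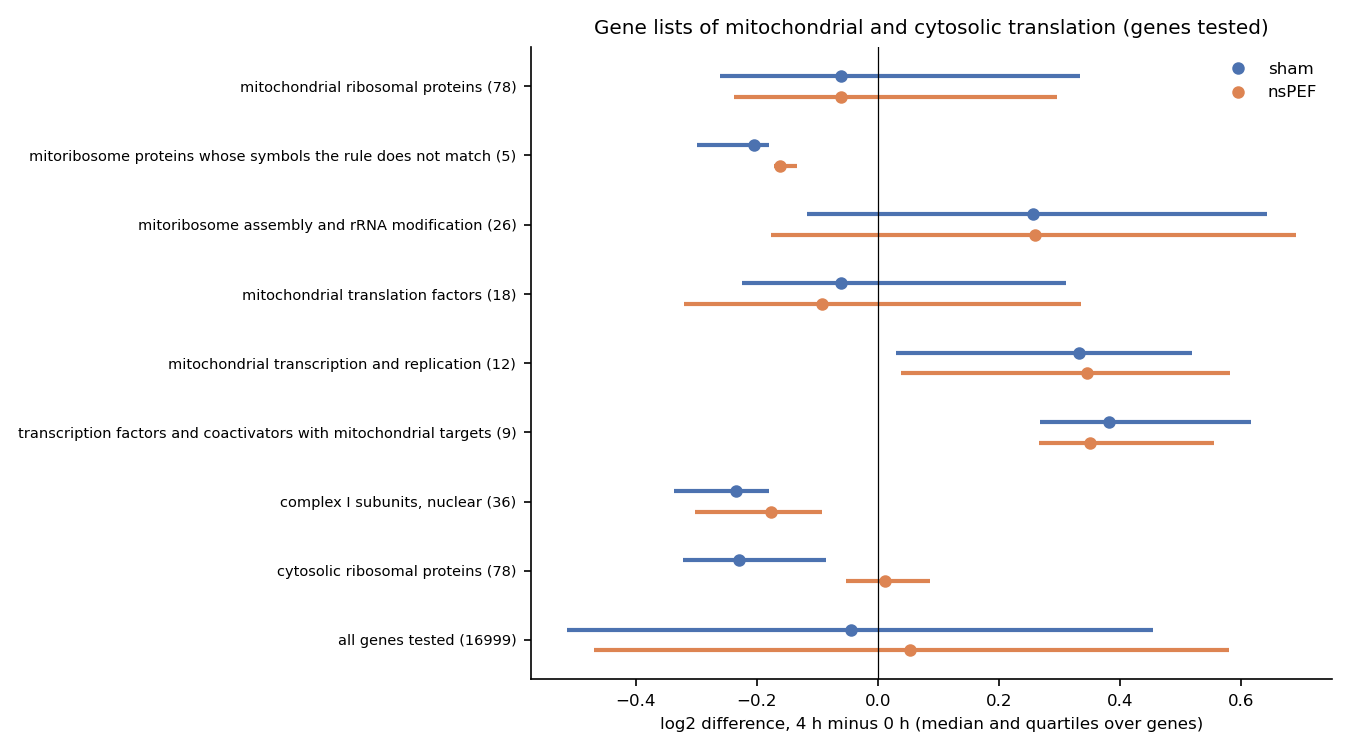
Median (point) and quartiles (line) of the log2 difference between 4 and 0 h over the genes of each list, blue for sham-exposed and orange for nsPEF-exposed cells, with the number of genes tested in brackets. The mitochondrial ribosomal protein genes straddle zero (median -0.06), the transcription factors (0.38 in sham-exposed cells) lie above and the complex I genes (-0.23) below it; after quantile normalization the median of the cytosolic ribosomal proteins in sham-exposed cells becomes 0.01.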

How the data were processed

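Total RNA of TM3 cells was labelled with Cy3 by the authors and hybridised to Agilent mouse 8 x 60 K arrays, and the deposited files hold the scanner intensity of each spot from Agilent Feature Extraction 12.0, background-corrected by that program. A deposited table of log2 values, which the authors shifted to the 75th percentile and centred on the median of all samples, served as an alternative. Here log2 of the processed signal minus the 75th percentile of the array was used, without control spots and without spots marked as outliers (1 value of the members, which the fit left out), with spots of a probe averaged. Probes well above background on at least 2 of 4 arrays of any group were tested (38037 of 56605), with 1 mean per group fitted on all 24 arrays in limma 3.58.1 (R 4.3.3), Benjamini-Hochberg adjustment over the probes and no covariate. An analysis of variance with treatment and time, as in the authors' methods, was an alternative. The number of arrays limits the precision. The paper states in its discussion that the assays of 1 biological replicate, adhesion apart, used a shared cell suspension. The replicate number as a block was therefore an alternative. Its values are given beside each call between treatments that it changed, and for the time comparisons only its counts are given.

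Symbols came from RefSeq transcripts, by which 34566 probes were named. The members and gene lists were chosen with earlier results of these data known. Values in every array are given for up to 4 rises and 4 falls in sham at 4 h, up to 3 and 3 in the other sham comparisons and at each time between treatments, and up to 5 and 5 over all times; also named are members against the majority, members whose probes disagree and, in lists, those with the smallest adjusted p. Genes and pairs chosen outside this rule, after their values were seen, are Mrps18a, Mrps18c, Mrps30, Mrps36, Mrpl58, Tfam, Ppargc1b, Nrf1, Mrm3 and Mterf2, and the neighbour pairs. The groups Leydig, Sertoli, germ cell, macrophage and endothelial hold textbook markers. Alternatives were quantile, spike-in (210 spots) and other percentile scaling, normexp with an offset of 50, filters, marked spots kept, the deposited log2 values, centring by bands of 8 rows of spots, a replicate block, array weights, the mean of the probes of a gene, and leaving out arrays. The fit was tested on simulated data. Head-to-head pairs and motifs were read from RefSeq promoter windows. mRNAs of the mitochondrial genome were not analysed here.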

Additional observations from a re-analysis of the deposited data

Results flagged for a closer look

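In groups of 4 arrays, 6 of 132 sets of values, those of the 22 members given array by array in each of 6 groups, had 1 array far from the other 3, where chance gives about 1 in 20. Mrpl51 in sham-exposed cells at 0 h read 5.93 in replicate 3, against 6.06 to 6.09 in the others. Mrpl55 in sham-exposed cells at 0 h read 3.82 in replicate 1, against 3.97 to 3.99. Mrps18b in sham-exposed cells at 24 h read 5.20 in replicate 4, against 5.10 to 5.11. Mrps21 in nsPEF-exposed cells at 24 h read 5.25 in replicate 3, against 5.36 to 5.37. Mrps6 at 4 h read 5.06 in sham replicate 4, against 5.18 to 5.19, and 5.02 in nsPEF replicate 4, against 5.16 to 5.18.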

How the results depend on the processing

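The 8 genes given for sham-exposed cells at 4 h kept direction and call under all 41 alternatives, whereas the genes called between treatments passed in fewer. Mrpl12 passed in 8 of 41, Mrps27 in 19 of 41, Mrps18b in 27 of 41, Mrps23 in 28 of 41 and Mrpl15 at 4 h in 30 of 41, and over all times Mrps21 passed in 15 of 42, Mrpl19 in 31 of 42 and Mrpl15 in 37 of 42. The count of changed genes between 24 and 0 h in sham-exposed cells went from 26 to 78 with spike-in scaling and 42 with array weights, and after nsPEF from 30 to 75 with spike-in scaling. Between treatments it went, at 0 h (0), to 1 with array weights. At 4 h (2) it was 1 with the percentile over probes detected on all arrays, 1 with the replicate block, 5 without a filter, 6 with marked spots kept, 6 with the deposited log2 values, 14 with centring by bands of rows over the tested probes, 7 with array weights and 4 with the mean of the probes of a gene. At 24 h (3) it was 7 after quantile normalization, 0 with spike-in scaling, 6 with the percentile over detected probes, 0 with normexp and 24 with array weights. Over all time points (3) it was 5 after quantile normalization, 9 with spike-in scaling, 5 without a filter, 8 with marked spots kept, 8 with the deposited log2 values, 12 with bands over the tested probes and 7 with array weights. The interaction (0) gave 1 with bands over the tested probes, 14 with array weights, 1 with the two-way analysis of variance and 1 with the mean of the probes. The cause of these shifts was not tested. Centring by bands over all probes, an alternative chosen after seeing the data, takes its centre from all 56605 probes and not only from the 38037 tested. It gave 31 genes at 0 h, 76 at 4 h, 40 at 24 h, 77 over all times and 3 for the interaction. It reversed Mrps23 (-0.070), Mrpl12 (-0.17) and the family's median at 24 h (-0.18). Why it moved the calls so far was not tested either.

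Leaving out arrays gave 52 to 61, 15 to 29 and 43 to 53 genes in the sham comparisons (4 against 0, 24 against 0 and 24 against 4 h), 50 to 60, 16 to 33 and 45 to 54 in those of nsPEF-exposed cells, and 0 to 0, 0 to 5, 0 to 14, 0 to 5 and 0 to 4 between treatments at 0, 4 and 24 h, over all times and in the interaction. The count over all times was 0 without replicate 1, 2 or 3 of all groups. The median of sham-exposed cells between 24 and 4 h reversed from -0.07 to 0.15 after quantile normalization, 0.57 with spike-in scaling and 0.082 with the percentile over detected probes. Spike-in scaling also reversed the medians of nsPEF at 4 against 0 h (0.015) and of nsPEF against sham at 4 h (0.12) and 24 h (-0.0057), and Mrpl23 (0.30), Mrpl24 (0.32) and Mrps28 (0.40) at 24 against 0 h. Spike-in scaling further turned the sign of the medians of sham at 24 against 0 h (0.64, and 0.020 after quantile normalization) and of nsPEF against sham at 0 h (0.10) and over all times (0.067, and 0.0081 with the percentile over detected probes). Same-numbered sham and nsPEF arrays had correlations of their deviations between -0.05 and 0.10 over 12 pairs, and 7 of 12 correlated best with their own number, all 4 at 4 h among them. With the replicate block the counts were 59, 25 and 52 in sham-exposed and 58, 31 and 51 in nsPEF-exposed cells, in the order above, and 0, 1, 2, 3 and 0 between treatments, where Mrps27 at 4 h and Mrpl12 at 24 h no longer passed. With 4 arrays a group and all members well above background, the median SE of a difference was 0.06, which limits what could be seen.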
